A study of Juglans regia with 12 samples.

Results

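The miR167 family of walnut flower buds comprised 31 of the 931 sequences in the deposited miRNA table, namely every row matched by name to miR167. Each row is 1 listed small RNA sequence of Persian walnut (Juglans regia), given with the name of a similar miRNA from another plant species and with a raw count in each of 6 small RNA libraries. Of the 31 rows, 18 reached at least 60 counts over the 6 libraries and are described singly. The row nearest above that limit, jre-MIR167_1-14, held 92 counts, and the row nearest below it, jre-MIR167_1-2, held 36. The other 13 rows held 163 counts together, or 0.0668% of the family's 243996 counts.

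Flower buds of 2 walnut types were compared, with 3 small RNA libraries of each. The first is labelled a precocious walnut (ZS) at an early flower stage and is called early-flowering here. The second is labelled a late fruiting walnut (WS) at a late flower stage and is called late-flowering here. Both were field-grown at Aksu, and the labels name no treatment, cultivar, age or tree. Type and stage of the buds cannot be told apart. Whether replicates are different trees is not stated, so a p-value covers the spread of these libraries alone, which may be technical. The 6 libraries held 309697 to 646408 counts of listed miRNAs, and 3 counts corresponded to 4.76 to 10.3 CPM (counts scaled to a fixed library total). Early-flowering replicate 1 had the lowest total.

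miR167 is a conserved plant miRNA that guides cleavage of mRNAs for the auxin response factors ARF6 and ARF8. In Arabidopsis, these transcription factors activate auxin-responsive genes and are needed for flower maturation, including stamen elongation and anther opening, and miR167 limits where they act. The mature, more abundant strand comes from the 5p arm of the hairpin precursor, and the opposite 3p strand is mostly degraded. Plant miRNAs of 22 bases, unlike most of those of 21 bases, can trigger secondary small RNAs from some targets.

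Nearly all of the family's counts came from 1 run of bases with different ends. The 9 sequences below are shown because they share their first 20 bases and differ only in the 1 or 2 bases that follow. Capitals mark the seed, bases 2 to 8 from the 5′ end, and T stands for U as in the deposited table.
jre-MIR167_2-3: tGAAGCTGccagcatgatctga
jre-MIR167_2-4: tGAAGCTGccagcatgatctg
jre-MIR167_2-2: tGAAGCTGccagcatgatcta
jre-MIR167_1-13: tGAAGCTGccagcatgatctta
jre-MIR167_2-10: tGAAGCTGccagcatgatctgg
jre-MIR167_1-6: tGAAGCTGccagcatgatctt
jre-MIR167_1-3: tGAAGCTGccagcatgatctgc
jre-MIR167_1-4: tGAAGCTGccagcatgatctaa
jre-MIR167_1-10: tGAAGCTGccagcatgatctc

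These 9 forms, 4 of 21 bases and 5 of 22 bases, held 97.2% of the family's counts. The seed GAAGCTG was shared by 15 of the 31 rows, which held 97.4% of the counts, and 0 other rows of the table had it. All 19 rows of the 5p strand began with T, that is, with the 5′ uracil that Arabidopsis AGO1 prefers. How reads that differ at the last 1 or 2 bases were assigned to rows is not given in the sources read here, so the split of counts between these forms is uncertain.

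The next 5 sequences are shown because they are the opposite-strand forms above the limit. A row was taken as 3p where its longest run of bases shared with jre-MIR167_2-3 was on the complementary strand, which held for 12 of the 31 rows.
jre-MIR167_2-9: aGATCATGgggcagtttcacc
jre-MIR167_2-7: gATCATATggcagcttcacc
jre-MIR167_1-1: aGATCATGtggcagtttcacc
jre-MIR167_2-5: gGTCATGCtctgacagcctcact
jre-MIR167_1-12: aGATCATAtggcagtttcacc

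In predicted duplexes with jre-MIR167_2-3, the number of paired bases was 18 for jre-MIR167_2-9, 17 for jre-MIR167_2-7, 19 for jre-MIR167_1-1, 17 for jre-MIR167_2-5 and 18 for jre-MIR167_1-12. jre-MIR167_1-1 differs from jre-MIR167_2-9 by G9T and jre-MIR167_1-12 differs from jre-MIR167_1-1 by G8A, counted from the 5′ end with the more abundant form's base first. The 12 rows of the 3p strand held 2.54% of the family's counts.

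The first question was whether the family as a whole differed between the bud types. Summed over its 31 rows, miR167 stood at 73326, 51065 and 63184 CPM of the TMM-scaled library in early-flowering buds and at 116280, 88962 and 82074 CPM in late-flowering buds. Every early-flowering library lay below every late-flowering one. The family made up 6.88%, 5.11% and 6.16% of the listed miRNA counts in early-flowering libraries and 10.8%, 9.27% and 9.28% in late-flowering ones. The mean was 62525 ± 11145 CPM against 95772 ± 18091 CPM (SD, n = 3 each), a log2 difference, early-flowering minus late-flowering, of −0.62 (SE 0.20, 95% interval −1.08 to −0.15). It did not pass the threshold of 0.05 (edgeR quasi-likelihood test, Benjamini-Hochberg adjusted p = 0.0829 over 37 families). Of those 37 families 5.41% passed with a lower and 8.11% with a higher level in early-flowering buds. In bulk buds, fewer cells that make a miRNA and less of it per cell cannot be told apart.

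The call on the sum depended on the scaling and on single libraries. The edgeR adjusted p was 0.0404 with DESeq2 size factors and 0.0118 with total counts. TMM computed without the most abundant sequence of the table gave 0.0155, and TMM of the family sums gave 0.0288. Scaling also moved the median log2 difference over all tested sequences, 0.13 in the main fit. It was 0.077 with DESeq2 size factors, 0.063 with total counts and 0.038 with TMM without the most abundant sequence. For the miR167 sum, over all 16 alternatives, DESeq2 and limma-trend among them, the adjusted p ranged from 0.0104 to 0.330 (edgeR at both ends). The edgeR adjusted p was 0.0104 without early-flowering replicate 1, with a log2 difference of −0.77, and 0.0349 without early-flowering replicate 3, with −0.80. The sum did not pass on leaving out any other library (edgeR adjusted p from 0.0677 to 0.247). The log2 difference was negative under all 16 alternatives and nearest to 0, at −0.32, when jre-MIR167_2-3 was left out of the sum.

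The most abundant form, jre-MIR167_2-3, the 22-base sequence that ends in GA, held 55.0% of the family's counts. It stood at 38821, 24124 and 30166 CPM in early-flowering buds and at 69372, 52529 and 47200 CPM in late-flowering buds. The groups did not overlap, and late-flowering replicate 1 was the highest library. Its mean was 31037 ± 7388 CPM against 56367 ± 11573 CPM (SD, n = 3 each; log2 difference −0.86, 95% interval −1.43 to −0.29), and the test did not pass (edgeR adjusted p = 0.0591 over 243 tested sequences). It passed in 9 of 15 alternatives, DESeq2 among them (DESeq2 adjusted p = 0.02). Over all 15, the log2 difference ranged from −1.07 to −0.69 and the adjusted p from 0.00319 to 0.123 (edgeR at both ends). Merging of near-identical sequences, another of the 9, added the counts of other miR167 rows to this form. Of the fits leaving out 1 library, this form passed without early-flowering replicate 1 (log2 difference −1.07, edgeR adjusted p = 0.0191) and without early-flowering replicate 3 (−1.03, edgeR adjusted p = 0.0402). Leaving out any other library gave edgeR adjusted p from 0.0972 to 0.123.

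The same sequence without its last base, jre-MIR167_2-4, was the second most abundant form. It stood at 12288, 10179 and 11259 CPM in early-flowering buds and at 17457, 15359 and 15421 CPM in late-flowering buds. These groups did not overlap either, and the log2 difference was −0.52 (SE 0.19, 95% interval −0.95 to −0.08, edgeR adjusted p = 0.106). jre-MIR167_2-2, the 21-base form that ends in A, stood at 6041, 5134 and 6800 CPM against 10208, 8333 and 7012 CPM. Its early-flowering maximum was close to its late-flowering minimum, and the log2 difference was −0.51 (SE 0.23, 95% interval −1.03 to 0.02, edgeR adjusted p = 0.155). The 22-base form with 1 more A, jre-MIR167_1-4, was far scarcer, at 302.7, 230.3 and 273 CPM against 428.3, 429.2 and 373.8 CPM, again without overlap (log2 difference −0.61, 95% interval −1.18 to −0.05, edgeR adjusted p = 0.123).

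**Figure D1:**
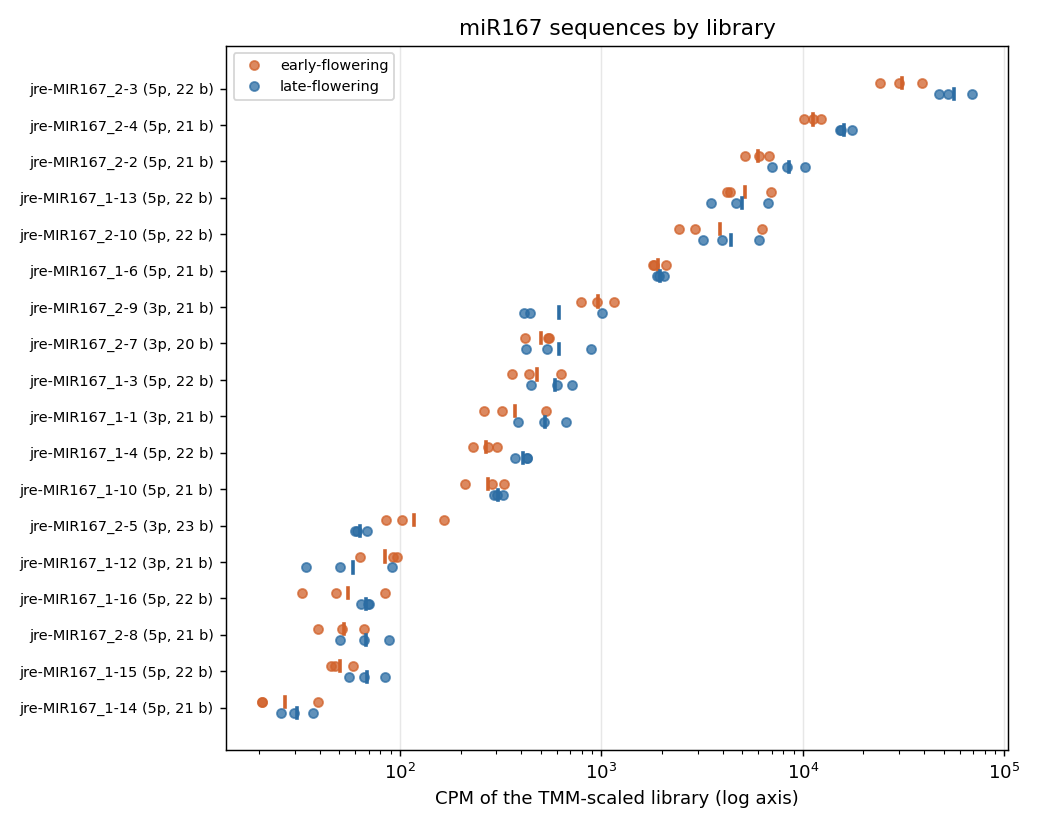
Level of each miR167 sequence with at least 60 counts, in CPM of the TMM-scaled library on a log axis. Points are the 3 libraries of each bud type and short bars their means; jre-MIR167_2-3, jre-MIR167_2-4, jre-MIR167_2-2 and jre-MIR167_1-4 have all early-flowering points below all late-flowering ones, and jre-MIR167_2-5 has them above.

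The forms that end in T or TA overlapped between the bud types. Neither passed the test against the family as a whole described further on (edgeR adjusted p = 0.727 for jre-MIR167_1-6 and 0.626 for jre-MIR167_1-13). jre-MIR167_1-13, the 22-base form that ends in TA, stood at 4207, 4369 and 6978 CPM in early-flowering buds and at 6730, 4674 and 3489 CPM in late-flowering buds. The groups overlapped widely (log2 difference 0.06, 95% interval −0.66 to 0.78, edgeR adjusted p = 0.902), and its sign turned under 3 of 15 alternatives: leaving out early-flowering replicate 3 gave −0.37, leaving out late-flowering replicate 3 gave −0.17, and the value was −0.0025 with TMM computed without the most abundant sequence of the table. Its 21-base partner jre-MIR167_1-6 was nearly level between the types, at 2098, 1803 and 1822 CPM against 1940, 2052 and 1889 CPM (log2 difference −0.04, 95% interval −0.50 to 0.42, edgeR adjusted p = 0.902).

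The forms that end in GG, GC and C overlapped between the bud types as well. jre-MIR167_2-10, ending in GG, stood at 6285, 2432 and 2906 CPM in early-flowering buds and at 6039, 3204 and 3949 CPM in late-flowering buds, so that replicate 1 of each type was the high library. Its log2 difference was −0.18 (95% interval −1.11 to 0.74, edgeR adjusted p = 0.756), with −0.73 when early-flowering replicate 1 was left out and 0.11 when late-flowering replicate 1 was. jre-MIR167_1-3, ending in GC, averaged 476.5 ± 140.7 CPM against 590.7 ± 135.3 CPM (SD, n = 3 each; log2 difference −0.31). jre-MIR167_1-10, ending in C, averaged 274.5 ± 60.2 CPM against 306.9 ± 16.1 CPM (log2 difference −0.16).

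The remaining 4 forms of the 5p strand above the limit are near copies of the abundant ones, each at 1 substitution from a more abundant form of the same length. jre-MIR167_1-16 carries G2A, inside the seed, and jre-MIR167_1-15 carries G12A, both against jre-MIR167_2-3. They held 0.144% and 0.137% of the counts of that form. jre-MIR167_2-8 carries A14G against jre-MIR167_2-4 and held 0.447% of its counts, and jre-MIR167_1-14 carries T20C against jre-MIR167_1-6 and held 1.55%. Their levels averaged 26.8 to 55.0 CPM in early-flowering buds and 30.8 to 68.95 CPM in late-flowering buds, with log2 differences from −0.46 to −0.18, and all 4 overlapped between the types. The log2 difference of jre-MIR167_1-16, −0.29 over all libraries, was −0.96 when early-flowering replicate 3 was left out and −0.012 when early-flowering replicate 2 was.

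The 3p forms are the strands that pair with the mature ones, and those above the limit had log2 differences on both sides of 0. jre-MIR167_2-9, the most abundant of them, stood at 952.9, 795.5 and 1154 CPM in early-flowering buds and at 1002, 442.1 and 411.1 CPM in late-flowering buds. The groups overlapped through late-flowering replicate 1 alone, and the log2 difference was 0.64 (SE 0.38, 95% interval −0.23 to 1.52, edgeR adjusted p = 0.245). Without late-flowering replicate 1 it was 1.18 (edgeR adjusted p = 0.0561).

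jre-MIR167_1-1, which differs from jre-MIR167_2-9 by the single substitution G9T, had the opposite sign. It stood at 529.8, 321.8 and 261.9 CPM against 667.1, 386.3 and 517.7 CPM (log2 difference −0.50, 95% interval −1.30 to 0.30, edgeR adjusted p = 0.300). Without early-flowering replicate 1, its highest early-flowering library, it was −0.87 and passed (edgeR adjusted p = 0.0481). That fit called 54 of all sequences, against 28 in the main fit. Over the 15 alternatives of jre-MIR167_1-1 the adjusted p ranged from 0.0481 to 0.585.

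jre-MIR167_2-5, the 23-base form, was the only miR167 row above the limit whose early-flowering libraries all lay above the late-flowering ones. It held 48, 63 and 54 counts in early-flowering buds and 35, 32 and 32 counts in late-flowering buds, or 165.1, 102.9 and 85.7 CPM against 61.4, 68.7 and 59.8 CPM. The log2 difference was 0.88 (SE 0.32, 95% interval 0.14 to 1.61, edgeR adjusted p = 0.106). jre-MIR167_1-12 averaged 84.5 ± 18.1 CPM against 58.7 ± 29.4 CPM (SD, n = 3 each; log2 difference 0.51), and jre-MIR167_2-7 averaged 502.7 ± 74.97 CPM against 615.0 ± 244.8 CPM (log2 difference −0.29, and 0.07 without late-flowering replicate 1). Both overlapped between the types.

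Of the 18 rows above the limit, which are also the 18 that entered the test, 0 passed the edgeR test at an adjusted p under 0.05 in either direction. Over all 243 tested sequences, 4.94% passed with a higher and 6.58% with a lower level in early-flowering buds. At an unadjusted p under 0.05, 4 of the 18 passed, namely jre-MIR167_2-3, jre-MIR167_2-4, jre-MIR167_1-4 and jre-MIR167_2-5, where 34.2% of all tested sequences did. With DESeq2, 1 row passed, jre-MIR167_2-3, and with limma-trend 0 did, where 38 and 31 of all tested sequences passed. Early-flowering libraries lay wholly below late-flowering ones for 4 of the 18 rows and wholly above for 1, where these shares were 17.7% and 19.8% over all tested sequences. The median log2 difference of the 18 rows was −0.29, with a range of −0.86 to 0.88, and over all tested sequences it was 0.13. Of the 13 tested rows of the 5p strand, 12 had a negative and 1 a positive log2 difference, and of the 5 of the 3p strand 2 had a negative and 3 a positive one, where 105 of all 243 had a negative one. These rows share most of their bases and are not independent, and only the 18 that were abundant enough could be counted.

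**Figure D2:**
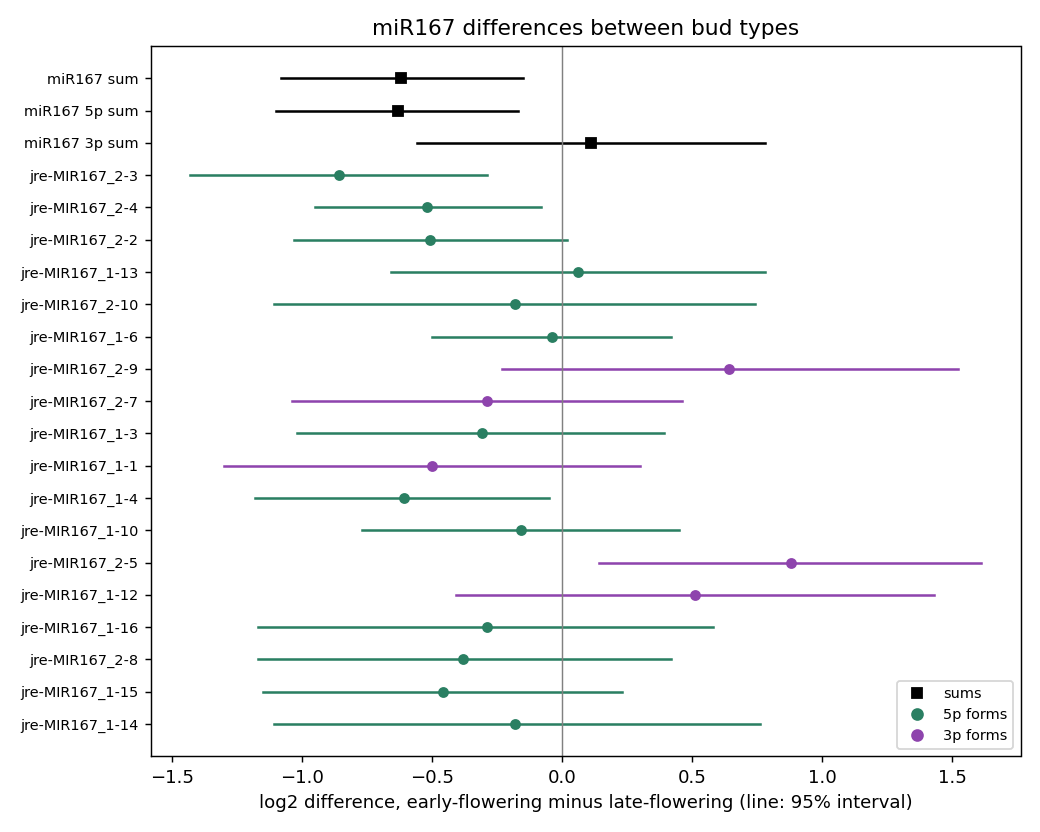
Log2 difference between bud types (early-flowering minus late-flowering, edgeR) for the miR167 sums and for the 18 sequences with at least 60 counts, ordered by abundance. Lines are 95% intervals; the sum of the 5p strand sits at −0.63 and that of the 3p strand at 0.11, and 3 of the 5 single 3p forms lie right of 0.

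Summed by strand, a split chosen after the values were seen, the 5p rows stood at 71155, 49212 and 61014 CPM in early-flowering buds and at 113534, 87580 and 80468 CPM in late-flowering buds (log2 difference −0.63, 95% interval −1.10 to −0.17, edgeR adjusted p = 0.0759). The 5p sum passed in 6 of 13 alternatives, DESeq2 among them, with adjusted p over all 13 from 0.00945 to 0.212 (edgeR at both ends). Of the fits leaving out 1 library, it passed without early-flowering replicate 1 (edgeR adjusted p = 0.00945) and without early-flowering replicate 3 (0.0307). Leaving out any other library gave edgeR adjusted p from 0.0625 to 0.212. The 3p rows stood at 2171, 1852 and 2170 CPM against 2745, 1382 and 1605 CPM, with overlap (log2 difference 0.11, 95% interval −0.56 to 0.78, edgeR adjusted p = 0.756). The sign of the 3p sum turned in 3 of 13 alternatives. These left out early-flowering replicate 3 (−0.088), late-flowering replicate 2 (−0.097) and late-flowering replicate 3 (−0.0030). Within a library, where no scaling enters, 3p counts came to 3.05%, 3.76% and 3.56% of the 5p counts in early-flowering buds and to 2.42%, 1.58% and 1.99% in late-flowering buds. The groups did not overlap in this ratio, which was picked by its values and not tested.

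The second question was whether forms of 22 and of 21 bases differed in their response. Forms of 22 bases (9 rows) held 67.9% of the family's counts and those of 21 bases (15 rows) 31.2%. The 22-base sum averaged 40953 ± 9342 CPM in early-flowering and 66871 ± 14636 CPM in late-flowering buds (SD, n = 3 each), and the 21-base sum 20939 ± 1945 CPM and 28198 ± 3227 CPM. Neither sum overlapped between the types. The ratio of 22-base to 21-base counts was 2.25, 1.69 and 1.88 in early-flowering libraries and 2.62, 2.27 and 2.17 in late-flowering ones. The groups overlapped, since early-flowering replicate 1 lay above late-flowering replicate 3. On the log2 scale the ratio averaged 0.95 ± 0.21 against 1.23 ± 0.14 (SD over 3 libraries each; difference −0.28, exact two-sided permutation p = 0.2, or 0.2 adjusted over the 2 ratios tested, with 0.1 the smallest p possible). Without jre-MIR167_2-3 the difference was 0.36, so its sign rested on that 1 sequence (exact permutation p = 0.2).

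Pairs of forms that differ only by a last A showed no common order between the bud types. For the GA and G forms, the 22-base to 21-base ratio was 3.16, 2.37 and 2.68 in early-flowering and 3.97, 3.42 and 3.06 in late-flowering libraries. For the TA and T forms, it was 2, 2.42 and 3.83 against 3.47, 2.28 and 1.85. For the AA and A forms, it was 0.0501, 0.0449 and 0.0401 against 0.0420, 0.0515 and 0.0533. All 3 ratios overlapped between the types, and in every library the 22-base form was the more abundant for the G and T ends and the less abundant for the A end.

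**Figure D3:**
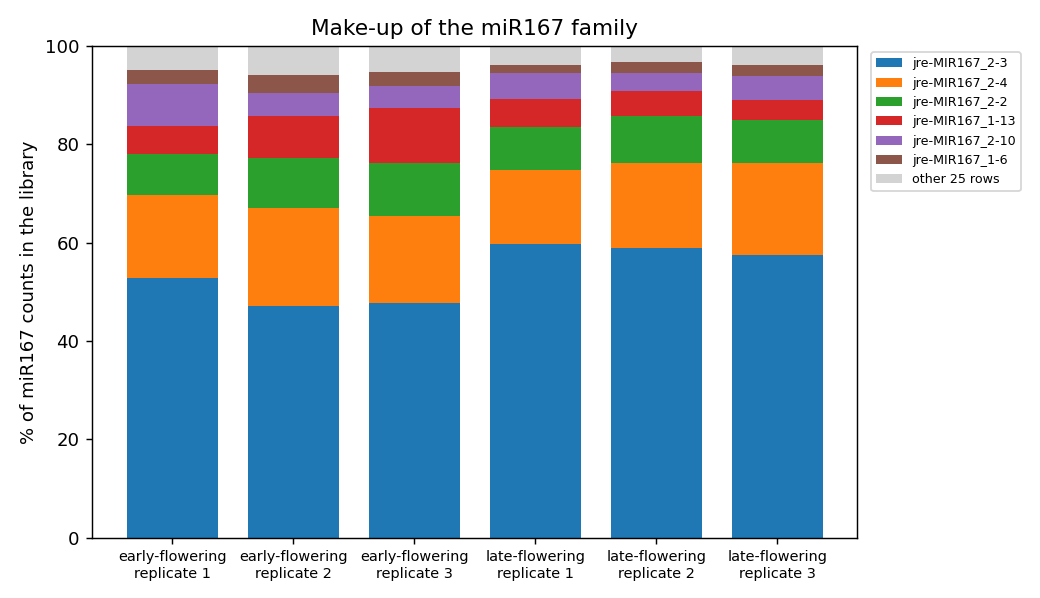
Share of the 6 most abundant miR167 sequences in the family's counts, as stacked percentages for each library. jre-MIR167_2-3 takes 47.2% to 52.9% in early-flowering and 57.5% to 59.7% in late-flowering libraries.

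The third question was whether the values of the deposited Family column differed. MIR167_2 (11 rows, 8 above the limit) held 88.6% of the family's counts and MIR167_1 (18 rows, 10 above the limit) 11.4%. The values MIR167 and undef had 1 row each, with 1 and 16 counts. The column does not follow strand or ends: jre-MIR167_2-3 and the 3p form jre-MIR167_2-9 are both in MIR167_2, while jre-MIR167_1-3, which differs from jre-MIR167_2-3 by A22C alone, is in MIR167_1.

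MIR167_2 stood at 65032, 43360 and 52985 CPM in early-flowering buds and at 105128, 80427 and 74641 CPM in late-flowering buds, without overlap. MIR167_1 stood at 8291, 7698 and 10191 CPM against 11143, 8533 and 7430 CPM, with overlap. The ratio of MIR167_2 to all other miR167 counts was 7.84, 5.63 and 5.20 in early-flowering libraries and 9.43, 9.42 and 10 in late-flowering ones. The groups did not overlap, and the early-flowering libraries were more spread. On the log2 scale it averaged 2.61 ± 0.31 against 3.27 ± 0.05 (SD over 3 libraries each), 1.57 times higher in late-flowering buds. A two-sided exact permutation test gave p = 0.1, the lowest value this design can reach, and 0.2 adjusted over the 2 ratios. Without jre-MIR167_2-3 the log2 difference was −0.38 in place of −0.65.

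Single forms were also tested against the sum of their family's tested forms, which asks whether the make-up of a family differed. That sum includes the form itself, so an abundant form is compared in part with itself. Of the 18 miR167 rows 0 passed this edgeR test at an adjusted p under 0.05, as 0% of 233 sequences did. The values farthest from 0 were those of 3 of the 3p forms, with log2 differences relative to the family of 1.49 for jre-MIR167_2-5 (edgeR adjusted p = 0.0702), 1.26 for jre-MIR167_2-9 (edgeR adjusted p = 0.172) and 1.12 for jre-MIR167_1-12 (edgeR adjusted p = 0.271). Without early-flowering replicate 1, jre-MIR167_2-9 passed, at a relative log2 difference of 1.43 (edgeR adjusted p = 0.0116, and 0.0116 to 0.779 over its 8 alternatives). The value was −0.25 for jre-MIR167_2-3 and 0.68 for jre-MIR167_1-13 (edgeR adjusted p = 0.948 and 0.626). jre-MIR167_2-3 makes up much of the sum it is set against, so −0.25 understates its distance from the other forms. Its own log2 difference was −0.86, and that of the family sum without it was −0.32.

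In shares of the family's counts, jre-MIR167_2-3 took 52.9%, 47.2% and 47.7% in early-flowering and 59.7%, 59.0% and 57.5% in late-flowering libraries. jre-MIR167_1-13 took 5.74%, 8.56% and 11% against 5.79%, 5.25% and 4.25%, and jre-MIR167_1-6 took 2.86%, 3.53% and 2.88% against 1.67%, 2.31% and 2.30%. The first share did not overlap and lay lower in early-flowering libraries, the second overlapped by a narrow margin, and the third did not overlap and lay higher. Of the 18 rows, 1 had a share wholly lower and 5 a share wholly higher in early-flowering libraries, where these were 10.3% and 19.3% of the 233 sequences over all families. The 5 are jre-MIR167_1-6, jre-MIR167_1-12, jre-MIR167_1-15, jre-MIR167_2-5 and jre-MIR167_2-9. Shares within a family sum to a fixed total, so a lower share of 1 abundant form raises the others.

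Some ratios between forms separated the types, but these were picked by their values and not tested. The pairs that differ only by a last A, given above, all overlapped. The count of jre-MIR167_2-3 was 9.23, 5.52 and 4.32 times that of jre-MIR167_1-13 in early-flowering libraries and 10.3, 11.2 and 13.5 times in late-flowering ones. The count of jre-MIR167_2-9 was 1.80, 2.47 and 4.41 times that of its near copy jre-MIR167_1-1 in early-flowering libraries and 1.5, 1.14 and 0.794 times in late-flowering ones. In both ratios the groups did not overlap.

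**Figure D4:**
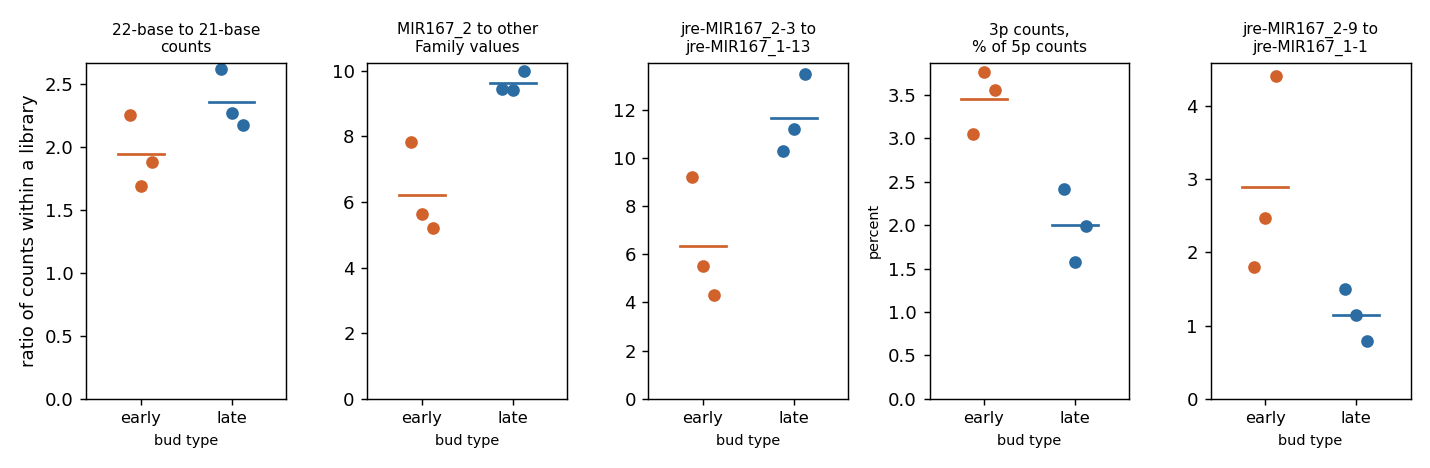
Ratios of miR167 counts inside each library, with points for the 3 libraries of each bud type and bars for their means. The ratio of 22-base to 21-base counts overlaps between the types, whereas the other 4 ratios shown do not. Of these 4, all but the ratio of MIR167_2 to other Family values were picked by their values. The ratios of forms that differ only by a last A, which overlap, are not shown. Counts of 3p forms are 3.05% to 3.76% of 5p counts in early-flowering and 1.58% to 2.42% in late-flowering libraries.

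The 13 rows below the limit held 8, 23 and 32 counts in early-flowering and 41, 26 and 33 counts in late-flowering libraries when summed, or 27.5, 37.6 and 50.8 CPM against 72.0, 55.8 and 61.7 CPM. None entered the test. They had 18 to 24 bases and 1 to 36 counts each, and included jre-MIR167_1-11, with 1 count.

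The sums of the other miRNAs of auxin signalling had log2 differences on both sides of 0, and 0 of 3 passed. miR160, which targets the repressors ARF10, ARF16 and ARF17, had a summed level of 2133 ± 514 CPM in early-flowering and 1882 ± 521 CPM in late-flowering buds (SD, n = 3 each; log2 difference 0.18, edgeR adjusted p = 0.668). miR390, which starts the production of small RNAs against ARF2, ARF3 and ARF4 from TAS3 transcripts, averaged 2491 ± 436 CPM against 1691 ± 283 CPM (log2 difference 0.56, edgeR adjusted p = 0.171). miR393, which targets the TIR1 and AFB auxin receptors, averaged 512.8 ± 49.2 CPM against 589.9 ± 77.7 CPM (log2 difference −0.20, edgeR adjusted p = 0.594). Of their 12 tested sequences 0 rose and 1 fell, where 4.94% and 6.58% of all 243 did, so the count is near the background. Their median log2 difference was 0.33, against 0.13 over all tested sequences.

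The 1 that fell, named after its values were seen, was jre-MIR160-4, matched to a 3p strand, which averaged 25.4 ± 8.60 CPM and 66.7 ± 5.53 CPM in the 2 types (SD over 3 libraries each; log2 difference −1.40, edgeR adjusted p = 0.0394). It passed in 8 of 15 alternatives and lost its call on leaving out any 1 library other than early-flowering replicate 1. Over all 15, the log2 difference ranged from −1.73 to −1.29 and the adjusted p from 0.0232 (DESeq2) to 0.151 (edgeR). The most abundant sequences of these families did not pass. jre-MIR160-3 had a log2 difference of 0.29 and jre-MIR393-2 of −0.44, both with overlap (edgeR adjusted p = 0.420 and 0.331). jre-MIR390-2 stood at 1097, 1547 and 1467 CPM against 886.5, 710.3 and 812.9 CPM, without overlap (log2 difference 0.77, edgeR adjusted p = 0.0685).

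The families whose summed log2 level was nearest to that of miR167 across the 6 libraries were miR482, miR403 and miR477, at Euclidean distances of 0.421, 0.432 and 0.561 after centring each family. miR482, known for targeting NBS-LRR resistance genes, stood at 81936, 66393 and 81915 CPM in early-flowering and at 107320, 100194 and 86219 CPM in late-flowering buds. miR403, which targets AGO2 in Arabidopsis, stood at 31645, 17080 and 20889 CPM against 33295, 29321 and 29011 CPM. miR477 was scarce, at 44.7, 34.3 and 58.7 CPM against 91.3, 55.8 and 71.0 CPM. All 3 early-flowering libraries lay below the late-flowering ones for miR482, whereas 1 early-flowering library overlapped for miR403 and 1 for miR477. The genes targeted by miR167 were not examined, since the deposited mRNA table pairs its gene IDs with no names.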

How the data were processed

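Small RNA libraries of flower buds, 3 per walnut type, were grouped by their titles. The authors deposited a raw count per listed miRNA sequence and library, per the file headers. The sources used here do not say how these libraries were built, mapped or counted. The submitters' processing notes name FastQC, HISAT2, Cufflinks and DESeq2 without a role. The 6 mRNA libraries were not used.

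The test was that of edgeR 4.0.16 under R 4.3.3 (TMM scaling on library totals, filterByExpr with a minimum count of 10, robust quasi-likelihood fits with walnut type as the only term), over 243 sequences or 37 families. Benjamini-Hochberg adjusted p-values under 0.05 were called. Family sums used the sequence-level TMM factors. Each form was set against the sum of its family's tested forms, itself included, with diffSpliceDGE. SEs come from the fold change and its F statistic, and 95% intervals use the fit's degrees of freedom. Distances used log2(CPM + 0.5). Ratios were tested by exact permutation. Duplexes were predicted with RNAduplex. The fits were tested on simulated counts. Within a type, chi-square per degree of freedom between libraries was 38.5 to 171, so no pair agreed within sampling noise. Intervals cover counting error and spread between these libraries only.

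Alternatives were other scalings, DESeq2 1.42.0, limma-trend (limma 3.58.1), other filters, merging of near-identical sequences, a block on replicate number and leaving out each library. Strand sums, form ratios and shares were added after the data were seen. The members and lists were chosen with earlier results of these data known. Named were every member with at least 60 counts, the 3 families nearest in pattern, and, for miR160, miR390 and miR393, the sums and the most abundant sequences.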

Additional observations from a re-analysis of the deposited data

How the results depend on the processing

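The number of miR167 sequences lower in early-flowering buds was 0, and it was 1 with DESeq2 size factors, total counts, TMM without the most abundant sequence, DESeq2, no filter, at least 10 CPM in 3 libraries and near-identical sequences merged. In that order, 31, 32, 31, 38, 40, 29 and 20 of all sequences were called in either direction, against 28 in the main fit. The miR167 number ranged from 0 to 2 over the left-out libraries and was 0 with limma-trend and with the replicate block. The number higher was 0 in all 15 alternatives. The family sum passed with log2 differences of −0.6618 (DESeq2 size factors), −0.6922 (total counts), −0.6998 (TMM without the most abundant sequence) and −0.5473 (TMM of the family sums), and leaving out single libraries gave −0.8047 to −0.4543. With the replicate block it was −0.6145 (edgeR adjusted p = 0.0558). Of the forms set against the family as a whole, 0 to 1 passed over the left-out libraries. The difference in the 22-base to 21-base log2 ratio turned to 0.3599 without the most abundant miR167 sequence, a 22-base form. Leaving out libraries gave −0.3955 to −0.1895. The number called among the 12 tested miR160, miR390 and miR393 sequences was 1, where 11.5% of all 243 were called, and it was 0 with no filter and with the replicate block and 0 to 2 over the left-out libraries. Signs that turned were those of jre-MIR167_1-13 (−0.002517 with TMM without the most abundant sequence, −0.3733 to 0.3432 over the left-out libraries), jre-MIR167_2-7 (−0.5161 to 0.07335), jre-MIR167_2-10 (−0.729 to 0.1118) and the 3p sum (−0.09656 to 0.4642), the last 3 over the left-out libraries. The cause was not tested. Deviations of same-numbered libraries from their type's mean correlated across sequences at −0.0912, −0.0871 and −0.303, and 0 of 3 early-flowering libraries correlated best with their own number. The replicate block changed no call on a miR167 sequence, form or sum. Merging joined 14 of the 31 rows to a more abundant form, so those rows have no value of their own there. Over all sequences, 2 to 54 passed when single libraries were left out, against 28. Intervals such as −1.11 to 0.74 for jre-MIR167_2-10, a form with 12193 counts, are too wide to show smaller differences. The SE was 0.40 for that form and 0.32 for jre-MIR167_2-5, with 264 counts, so in these 2 the width did not follow the count.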
